A study of Mus musculus with 6 samples.

Results

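The genes described here are 10 members of the Wnt pathway that act as its transducer, its transcription factors, its feedback inhibitors or its secreted inhibitors: Ctnnb1, Tcf7, Lef1, Axin1, Axin2, Nkd1, Sfrp1, Wif1, Dkk2 and Dkk3. They were chosen by name and found by symbol among the 56262 genes of the deposited count table, and all 10 had enough counts to be tested. Their mRNA was measured by RNA-seq in whole lungs of 3 R/R mice and 3 WT littermates, all 8 weeks of age and untreated. R/R mice are C57BL/6 knock-in mice that carry the K329R and K332R substitutions in the RNA-binding protein RBM47 on both alleles, and WT mice carry neither. The comparison of the genotypes asks how the lung transcriptome differs when RBM47 cannot take ISG15, a ubiquitin-like protein, at these lysines. The animals are described as biological replicates.

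In canonical Wnt signaling, a secreted Wnt ligand binds a Frizzled receptor and its co-receptor LRP5 or LRP6 and stops the destruction complex, built on the AXIN scaffold proteins, from degrading β-catenin. β-catenin, the product of Ctnnb1, then enters the nucleus and activates genes together with the DNA-binding factors TCF1 (gene Tcf7), LEF1 and their relatives. Axin2 and Nkd1 are themselves target genes and dampen the pathway as negative feedback. SFRP and WIF1 proteins bind Wnt ligands outside the cell, and DKK proteins such as DKK2 act at the co-receptor. In the adult lung the pathway is known for maintaining alveolar type 2 progenitors, and TCF1 and LEF1 are known for their role in T cells.

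Each lung had between 16501092 and 18141067 read pairs on genes, and levels are given as CPM, counts relative to the total of the lung after scaling by TMM, on which a single count is worth between 0.0552 and 0.0607 CPM. The defining markers of lung were present: Sftpc of alveolar type 2 cells lay between 10010 and 13790 CPM, Ager of alveolar type 1 cells between 1545 and 1766 CPM and Pecam1 of endothelium between 875 and 1029 CPM. Neighbouring tissue differed between lungs. The heart muscle gene Myh6 ranged from 1.76 CPM in WT replicate 3 to 98.3 CPM in WT replicate 2. The mean log2 CPM of the 2 tested adipose markers, of 6 listed, was 3.58 in R/R replicate 3 and 3.54 in WT replicate 3, and between 0.22 and 2.33 in the other lungs. All lungs had some adipose transcripts, and the 2 highest on this mean are called the lungs with adipose transcripts below. Rbm47 itself was at 32.7, 33.5 and 34.1 CPM in R/R lungs and 28.8, 30.5 and 34.4 CPM in WT lungs (log2 fold change 0.10, standard error 0.08, adjusted p = 0.660 by edgeR, quasi-likelihood).

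Of the 10 genes, Sfrp1 was higher and Tcf7 was lower in R/R than in WT lungs, and the other 8 did not pass 0.05 in edgeR's quasi-likelihood test, with p adjusted by Benjamini-Hochberg over the 17120 genes tested. Among all genes tested, 1.75% passed this threshold, 0.648% as higher and 1.10% as lower. Sfrp1, a secreted antagonist of Wnt ligands, rose 1.73-fold, and Tcf7, the gene of the transcription factor TCF1, fell to 0.701 of its WT level. The estimates were above 0 for 3 genes and below 0 for 7, and their median log2 fold change was -0.10, beside 0.00 over all genes. In 3 of the 10, namely Sfrp1, Tcf7 and Axin2, the R/R and WT lungs did not overlap, as in 18.7% of all genes tested (9.17% with the R/R lungs above and 9.50% with them below).

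**Figure D1:**
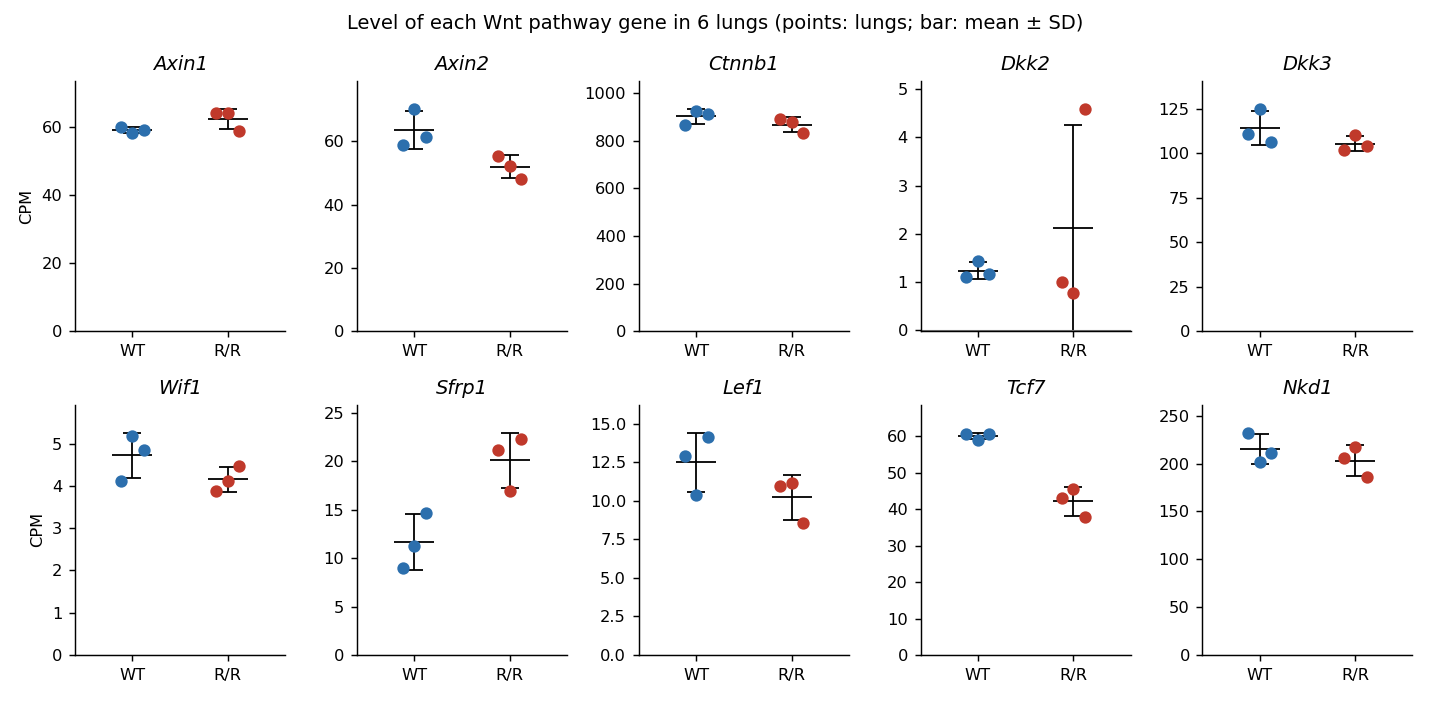
Level of each of the 10 genes in CPM (vertical axes, linear), with 1 point per lung in 3 WT (blue) and 3 R/R (red) lungs and bars for the mean ± SD. The R/R points lie apart from the WT points for Axin2, Sfrp1 and Tcf7, and for Dkk2 the R/R mean and its bar follow a single lung at 4.59 CPM.

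Tcf7 (ENSMUSG00000000782.16, minus strand of chromosome 11 from 52252371 to 52283331, GRCm38) measured 60.8, 59.1 and 60.6 CPM in WT lungs and 43.1, 45.6 and 37.8 CPM in R/R lungs, in the order of the replicate numbers, which is kept throughout. All R/R lungs were below all WT lungs, and the WT lungs were close together. R/R lungs averaged 42.1 ± 3.95 CPM and WT lungs 60.2 ± 0.921 CPM (SD, n = 3 each). On the log2 scale the fold change was -0.51 (standard error 0.08, 95% interval -0.68 to -0.35, adjusted p = 0.00918, edgeR). Permuting the 6 lungs exactly (two-sided, on log2 CPM) gave p = 0.1, the minimum for 3 lungs against 3. With each lung left out in turn Tcf7 passed the threshold in all 6 cases, with adjusted p between 0.00861 and 0.0454.

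Lef1 (ENSMUSG00000027985.14, plus strand of chromosome 3 from 131110471 to 131224356) encodes a close relative of TCF1. It was at 10.9, 11.2 and 8.54 CPM in R/R lungs and at 12.9, 10.4 and 14.2 CPM in WT lungs. The groups overlapped, because WT replicate 2 was below R/R replicates 1 and 2. The log2 fold change was -0.29 (standard error 0.15, 95% interval -0.62 to 0.04, adjusted p = 0.428, edgeR), so at this spread a fall of the size seen for Tcf7 was within the interval. Counting used no strand, and 13.7% of the exonic bases of Lef1 are shared with Gm43352 on the opposite strand.

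TCF and LEF factors bind DNA through the core CTTTGA, read on the other strand as TCAAAG. RefSeq promoter windows (GRCm38.p6, from 250 bases before to 50 bases after a start site) were present for 7 of the 10 genes, in 12 windows in all. Axin1, Dkk3 and Sfrp1 had no entry. The core was found on either strand in 1 of the 12 windows, and in 16.0% of all 32851 RefSeq promoter windows of the same length. The window that holds it belongs to an internal start site of Lef1, at chr3:131156044-131156343 on the plus strand, and is shown for that reason, 5′ to 3′, with the core in capitals at 180 and 120 bases before the start.
Lef1 internal promoter: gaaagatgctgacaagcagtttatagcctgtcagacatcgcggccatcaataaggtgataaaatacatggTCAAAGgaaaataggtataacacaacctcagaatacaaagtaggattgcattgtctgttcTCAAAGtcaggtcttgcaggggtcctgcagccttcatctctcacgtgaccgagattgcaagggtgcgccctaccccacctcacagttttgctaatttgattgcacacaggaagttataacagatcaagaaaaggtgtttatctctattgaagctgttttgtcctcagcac
A match to these letters is a description of the window and does not show binding.

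Because naive T cells express Tcf7 and Lef1, both genes were set beside a list of 15 T cell markers, all of which were tested. In the list 14 estimates were lower in R/R lungs, 9 at an unadjusted p under 0.05 (edgeR). Of all genes tested 14.2% passed that unadjusted threshold, in either direction. In the list 0 passed the adjusted threshold with filtered edgeR or limma-voom, while DESeq2 called 3 lower and the unfiltered edgeR fit 6. The median log2 fold change was -0.46. The summed level of the list lay between 75.5 and 91.9 CPM in R/R lungs and between 105 and 131 CPM in WT lungs, without overlap. Cd3e, a chain of the T cell receptor complex, was at 3.33, 5.44 and 4.36 CPM in R/R lungs and at 5.47, 5.46 and 6.56 CPM in WT lungs. Cd8a, the co-receptor of cytotoxic T cells, was at 4.44, 4.78 and 4.12 CPM in R/R lungs and at 8.02, 5.85 and 11.8 CPM in WT lungs. Cd4, the co-receptor of helper T cells, overlapped between the groups, at 6.22, 7.05 and 5.42 CPM in R/R lungs and 6.44, 7.01 and 7.73 CPM in WT lungs.

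On the log2 scale, Tcf7 lay above the mean of the T cell markers by 3.05, 3.11 and 3.21 in R/R lungs and by 3.26, 3.22 and 2.93 in WT lungs. The difference between the genotypes in this relative level was -0.01 (exact two-sided permutation test, p = 0.9), beside the log2 fold change of -0.51 in the level itself. Within WT lungs the marker mean was 2.67, 2.66 and 2.99, while Tcf7 was at 5.93, 5.89 and 5.92 log2 CPM and did not follow it. Within R/R lungs both were lowest in replicate 3. The part of other cells in the level of Tcf7 was not tested. Lef1 lay above the markers by 1.07, 1.09 and 1.07 in R/R lungs and by 1.03, 0.72 and 0.84 in WT lungs. All R/R lungs were above all WT lungs, with a difference of 0.22 (exact two-sided permutation test, p = 0.1, again the minimum). In whole lung, fewer cells of a type and less RNA per cell cannot be told apart. The B cell list moved in the same direction as the T cell list, with 5 of 10 markers called lower, beside 1.10% of all genes tested. Of these 5 markers, Ms4a1 was at 11.4, 12.2 and 9.31 CPM in R/R lungs and 25.4, 19.4 and 20.5 CPM in WT lungs. The NK cell list did not move in this direction, with 6 of 7 estimates above 0, a median of 0.26 and 0 called in the filtered edgeR fit. Its summed level overlapped between the groups. Of the 5 thymus markers 0 had enough counts to be tested, and their summed level was below 1 CPM in every lung.

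**Figure D2:**
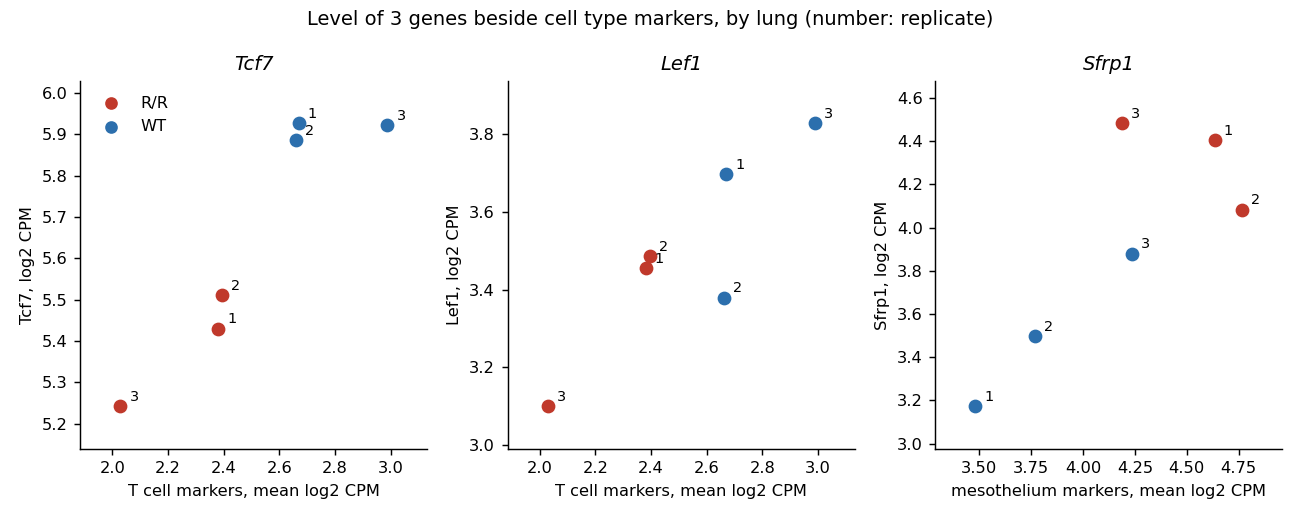
Level of Tcf7, Lef1 and Sfrp1 (vertical axes, log2 CPM) against the mean of the tested T cell or mesothelium markers (horizontal axes, log2 CPM), with 1 point per lung, R/R in red and WT in blue, numbered by replicate. The R/R lungs lie lower on both axes for Tcf7, and higher on the vertical axis for Sfrp1, where R/R replicate 3 and WT replicate 3 share nearly the same marker level.

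Sfrp1 (ENSMUSG00000031548.7, plus strand of chromosome 8 from 23411502 to 23449632) encodes a secreted protein with a Frizzled-like domain that binds Wnt ligands. It was at 21.1, 16.9 and 22.3 CPM in R/R lungs and at 8.99, 11.3 and 14.7 CPM in WT lungs. All R/R lungs were above all WT lungs, and the closest pair was R/R replicate 2 and WT replicate 3. R/R lungs averaged 20.1 ± 2.84 CPM and WT lungs 11.6 ± 2.87 CPM (SD, n = 3 each). This was a 1.73-fold rise with a 95% interval from 1.35 to 2.21 (log2 fold change 0.79, standard error 0.16, adjusted p = 0.0381, edgeR). The exact two-sided permutation test gave p = 0.1. The call did not hold in 5 of the 6 fits that leave out a lung: leaving out R/R replicates 1, 2 and 3 gave adjusted p of 0.0956, 0.0668 and 0.122 and leaving out WT replicates 1 and 2 gave 0.131 and 0.122, with log2 fold changes between 0.63 and 0.90. Without WT replicate 3 it was 0.00471, at a log2 fold change of 0.99.

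Markers of mesothelium, the cell layer that covers the lung, also had higher estimates in R/R lungs. Within R/R lungs Sfrp1 was highest in replicate 3, where the mean log2 CPM of these markers was lowest (4.63, 4.77 and 4.19). Within WT lungs both rose from replicate 1 to replicate 3. All 6 mesothelial markers had estimates above 0, 1 of them (Lrrn4) was called, and their median log2 fold change was 0.79. Their summed level was 318, 319 and 246 CPM in R/R lungs and 168, 185 and 242 CPM in WT lungs, so that on this sum the R/R lungs lay above the WT lungs, with R/R replicate 3 and WT replicate 3 nearly level. On the mean of their log2 CPM the groups overlapped, with 4.19 in R/R replicate 3 and 4.24 in WT replicate 3. The defining marker Msln overlapped between the groups, at 64.0, 57.6 and 34.1 CPM in R/R lungs and 23.5, 28.1 and 40.5 CPM in WT lungs. Relative to the mean of the mesothelial markers on the log2 scale, Sfrp1 lay at -0.23, -0.68 and 0.30 in R/R lungs and at -0.31, -0.27 and -0.36 in WT lungs, a difference of 0.10 (exact two-sided permutation test, p = 0.7). This comparison was added after the levels were seen. The alveolar macrophage list was higher too, with 7 of 7 estimates above 0, 2 called higher (Chil3 and Mrc1), and a summed level between 798 and 914 CPM in R/R lungs and between 500 and 691 CPM in WT lungs. In the alveolar type 2 list 8 of 8 estimates were above 0, with 0 called in the filtered edgeR fit and a median of 0.18. Its summed level lay between 24697 and 26092 CPM in R/R lungs and between 19477 and 24248 CPM in WT lungs. The fibroblast lists did not move one way, with 0 called in the filtered edgeR fit. In the adventitial fibroblast list 3 of 7 estimates were above 0, with a median of -0.002. In the alveolar fibroblast list 4 of 7 were above 0, with a median of 0.006. The part of these cell types in the rise of Sfrp1 was not tested beyond these values.

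The other secreted inhibitors did not pass the threshold. Dkk3 (ENSMUSG00000030772.6, minus strand of chromosome 7 from 112116017 to 112159057), a divergent member of the Dickkopf family, was the most abundant of them at 102, 110 and 104 CPM in R/R lungs and 111, 125 and 107 CPM in WT lungs (log2 fold change -0.12, standard error 0.07, 95% interval -0.27 to 0.03, adjusted p = 0.498, edgeR). The groups overlapped between R/R replicate 2 and WT replicate 3. Wif1 (ENSMUSG00000020218.11, plus strand of chromosome 10 from 121033960 to 121100650), which binds Wnt ligands, was at 3.88, 4.12 and 4.48 CPM in R/R lungs and 4.13, 5.19 and 4.86 CPM in WT lungs. Its log2 fold change was -0.19 (standard error 0.18, 95% interval -0.57 to 0.20, adjusted p = 0.713, edgeR), and the groups overlapped.

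Dkk2 (ENSMUSG00000028031.6, plus strand of chromosome 3 from 132085292 to 132180304), a Dickkopf protein that acts at LRP co-receptors, rested on few counts. The R/R lungs held 18, 13 and 78 counts and the WT lungs 18, 26 and 20, or 0.999, 0.777 and 4.59 CPM and 1.09, 1.43 and 1.17 CPM. R/R replicates 1 and 2 were below all WT lungs and R/R replicate 3 was above them. The log2 fold change was 0.77 (standard error 0.57, 95% interval -0.47 to 2.01, adjusted p = 0.606, edgeR) and turned to -0.47 without R/R replicate 3 (adjusted p = 0.622, edgeR). That lung is 1 of the 2 with the highest mean of adipose markers, and in the other, WT replicate 3, Dkk2 was at 1.17 CPM. Dkk1, the best known Dickkopf inhibitor, was counted 3, 0 and 0 times in R/R lungs and 1, 0 and 1 times in WT lungs. This is at or below the limit of 3 counts that a count of 0 allows, and the depth could not show a difference.

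Axin2 (ENSMUSG00000000142.15, plus strand of chromosome 11 from 108920349 to 108950783), the feedback scaffold that is widely read as a target of canonical signaling, was at 55.5, 52.3 and 48.2 CPM in R/R lungs and at 59.0, 70.3 and 61.5 CPM in WT lungs. All R/R lungs were below all WT lungs, the closest being R/R replicate 1 and WT replicate 1. R/R lungs averaged 52.0 ± 3.67 CPM and WT lungs 63.6 ± 5.93 CPM (SD, n = 3 each). The log2 fold change was -0.29 (standard error 0.08, 95% interval -0.47 to -0.11), with an unadjusted p of 0.00374 and an adjusted p of 0.109 by edgeR's quasi-likelihood test, so it did not pass the threshold over all genes. It passed in 1 of the 15 alternatives, the fit with no filter on low counts (adjusted p = 0.0121, edgeR). Gm11670 on the opposite strand shares 3.80% of its exonic bases.

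Nkd1 (ENSMUSG00000031661.12, plus strand of chromosome 8 from 88521354 to 88594884), a feedback inhibitor that binds Dishevelled, was at 206, 218 and 186 CPM in R/R lungs and 232, 202 and 211 CPM in WT lungs. Its log2 fold change was -0.08 (standard error 0.07, 95% interval -0.24 to 0.08, adjusted p = 0.685, edgeR). Axin1 (ENSMUSG00000024182.16, plus strand of chromosome 17 from 26138688 to 26195811), the constitutive scaffold of the destruction complex, was at 63.9, 64.0 and 58.8 CPM in R/R lungs and 59.9, 58.3 and 59.1 CPM in WT lungs. Its log2 fold change was 0.08 (standard error 0.06, 95% interval -0.06 to 0.21, adjusted p = 0.656, edgeR). Ctnnb1 (ENSMUSG00000006932.17, plus strand of chromosome 9 from 120929216 to 120960507) was at 892, 878 and 832 CPM in R/R lungs and 867, 927 and 914 CPM in WT lungs, and its log2 fold change was -0.06 (with standard error 0.06, 95% interval -0.20 to 0.08, adjusted p = 0.756, edgeR). The groups overlapped in all 3 genes, and the intervals leave room for changes of at most 0.24 on the log2 scale in either direction. These are mRNA levels, and the amount or place of β-catenin protein was not measured. Ulk4 on the opposite strand shares 14.6% of the exonic bases of Ctnnb1.

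Levels of different genes were compared per length, as TPM, that is counts per kilobase scaled to the same total in every lung, from the gene lengths of the table, averaged over the 6 lungs. The order was Ctnnb1 at 575 TPM, Nkd1 at 155 TPM, Dkk3 at 110 TPM, Tcf7 at 57.3 TPM, Axin1 at 53.4 TPM, Axin2 at 35.5 TPM, Sfrp1 at 12.2 TPM, Wif1 at 6.18 TPM, Lef1 at 4.36 TPM and Dkk2 at 1.53 TPM. The ranges over the lungs overlapped for 3 neighbouring pairs, which are Tcf7 and Axin1, Sfrp1 and Wif1, and Lef1 and Dkk2. Tcf7 was above Axin1 in 3 of the 6 lungs. Tcf7 stood at 46.2 ± 3.71 TPM in R/R lungs and 68.4 ± 1.76 TPM in WT lungs (SD, n = 3 each), while Axin1 stood at 53.9 ± 2.34 TPM and 53.0 ± 1.64 TPM, so their order differed between the genotypes. Among the secreted inhibitors, Dkk3 was the highest in level and Sfrp1 the one that was called.

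**Figure D3:**
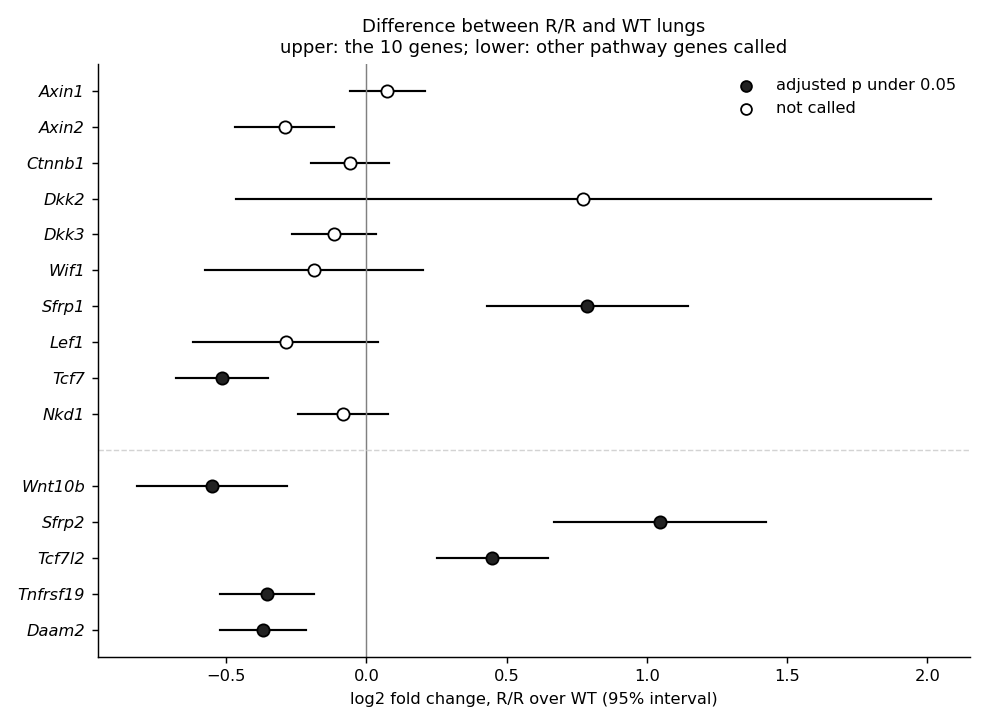
Log2 fold change of R/R over WT lungs (horizontal axis) with its 95% interval for the 10 genes and for the 5 other Wnt pathway genes that were called; filled points passed an adjusted p of 0.05. Sfrp1 lies above 0 and Tcf7 below it, the interval of Axin2 also lies below 0, and that of Dkk2 is the widest of the 10.

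The rest of the pathway was taken from 9 lists of known genes grouped by role, 113 genes in all without the 10 above, of which 94 were tested. Of these, 2 were called higher (Sfrp2 and Tcf7l2) and 3 lower (Wnt10b, Tnfrsf19 and Daam2) in R/R lungs, beside 1.75% called among all genes. The median log2 fold change was -0.03. At an unadjusted p under 0.05, 9 were higher and 17 were lower, or 26 in all, where 14.2% of all genes tested passed.

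Sfrp2, which encodes a secreted Frizzled-related protein like Sfrp1, was at 11.8, 10.7 and 16.4 CPM in R/R lungs and at 6.26, 5.63 and 6.91 CPM in WT lungs. All R/R lungs were above all WT lungs (log2 fold change 1.05, standard error 0.17, adjusted p = 0.0158, edgeR). It was not called without WT replicate 1 or 2, at adjusted p of 0.0635 and 0.0541 (edgeR). It shares 347 exonic bases with Gm26771 on the opposite strand. Relative to the mean of the mesothelial markers, Sfrp2 (log2) lay between -1.34 and -0.15 in R/R lungs and between -1.44 and -0.83 in WT lungs (difference 0.32, exact two-sided permutation test, p = 0.6). The remaining secreted or membrane inhibitors, 8 tested of 16 with Sfrp2, gave no other call in the filtered edgeR fit, DESeq2 or limma-voom, and the lowest estimate among the tested genes was that of Kremen2, a DKK receptor, at -0.46 (adjusted p = 0.589, edgeR). Sost, which encodes the secreted LRP inhibitor sclerostin, had too few counts for the filtered fit, with 0, 6 and 4 counts in R/R and 16, 10 and 31 in WT lungs. All R/R lungs were below all WT lungs, and it was called lower in the unfiltered edgeR fit.

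Tcf7l2, the gene of the TCF factor TCF4, was at 27.7, 29.0 and 31.1 CPM in R/R lungs and at 20.6, 23.7 and 20.0 CPM in WT lungs, opposite in direction to Tcf7. The groups did not overlap (log2 fold change 0.45, standard error 0.09, adjusted p = 0.0348, edgeR), and the call held in 1 of the 6 fits that leave out a lung, the one that left out WT replicate 2, and the adjusted p reached 0.143 in the others. It was also lost without both lungs with adipose transcripts (adjusted p = 0.107, edgeR). Of the 13 nuclear factors, all tested, no other was called in the filtered edgeR fit, DESeq2 or limma-voom, and Tle1, a corepressor gene with a log2 fold change of 0.22, was called higher in the unfiltered edgeR fit. The corepressor gene Tle3 had the lowest estimate, at -0.21 (adjusted p = 0.164, edgeR).

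Wnt10b, a ligand of the canonical branch, was at 17.8, 24.4 and 19.4 CPM in R/R lungs and at 31.6, 32.2 and 26.2 CPM in WT lungs, without overlap (log2 fold change -0.55, standard error 0.12, adjusted p = 0.0467, edgeR). The call was lost without R/R replicates 1 or 3 or WT replicates 1 or 2, with adjusted p up to 0.173 (edgeR). Of the 19 ligands 11 were tested, and the highest estimate was that of Wnt7a, at 24.3, 21.9 and 23.6 CPM in R/R lungs and 18.2, 17.1 and 19.8 CPM in WT lungs (log2 fold change 0.34, adjusted p = 0.0969, edgeR). The median of the ligands was 0.00. Of Porcn and Wls, which serve Wnt secretion, Porcn had the higher estimate, at 0.14 (adjusted p = 0.517, edgeR).

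Tnfrsf19, known as a target of β-catenin, was at 84.2, 75.7 and 70.1 CPM in R/R lungs and at 95.7, 105 and 93.0 CPM in WT lungs (log2 fold change -0.35, standard error 0.08, adjusted p = 0.0435, edgeR). It was not called without R/R replicates 2 or 3 or WT replicates 1 or 2, with adjusted p up to 0.171 (edgeR), nor without both lungs with adipose transcripts (0.0572). The groups did not overlap, but the list of 14 other canonical targets did not move one way: of its 13 tested genes 8 estimates were above 0 and 5 below, with a median of 0.03. Lgr5, the R-spondin receptor that marks stem cells in several tissues, had the highest estimate in this list, at 1.22 (standard error 0.40, adjusted p = 0.178, edgeR), with 34, 14 and 27 counts in R/R and 7, 15 and 10 in WT lungs. Daam2, a formin that acts with Dishevelled, was at 55.0, 50.8 and 52.8 CPM in R/R lungs and at 73.9, 67.6 and 63.4 CPM in WT lungs, without overlap (log2 fold change -0.37, standard error 0.07, adjusted p = 0.0310, edgeR). It was called without R/R replicate 1 or WT replicate 3 and not in the other 4 cases, where the adjusted p reached 0.125 (edgeR). The planar polarity list of 10 genes, all tested, had 9 estimates below 0, a median of -0.13 and Celsr1 as its highest at 0.17 (adjusted p = 0.453, edgeR). Smooth muscle and pericyte markers were lower too, with 9 of 10 estimates below 0, 1 called (Pdgfrb) and a summed level between 1076 and 1199 CPM in R/R lungs and between 1297 and 1435 CPM in WT lungs. Their part in the falls of Tnfrsf19 and Daam2 was not tested.

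**Figure D4:**
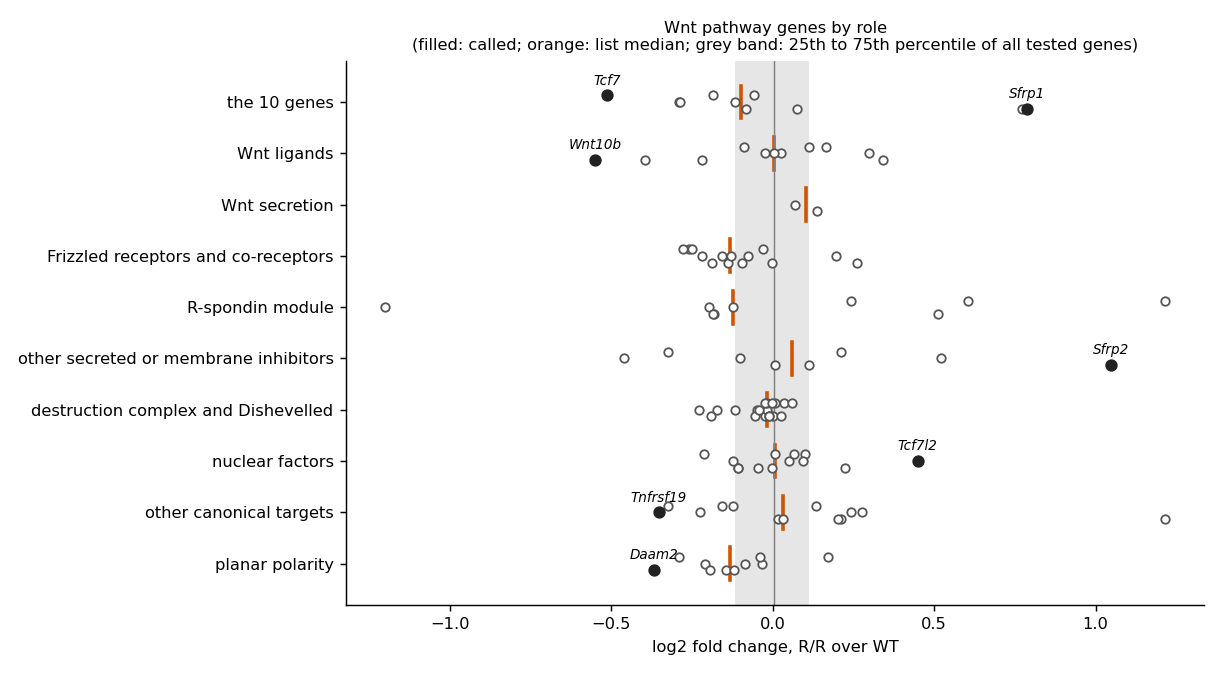
Log2 fold change of R/R over WT lungs (horizontal axis) for the 10 genes and for 94 other tested Wnt pathway genes by role, with 1 point per gene, called genes filled and named, list medians in orange and the 25th to 75th percentile of all tested genes in grey. A gene that belongs to several lists is drawn in each, and 12 of the 14 tested Frizzled receptors and co-receptors lie below 0.

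Receptors, the R-spondin module and the destruction complex gave no calls with edgeR's quasi-likelihood test or with limma-voom, and DESeq2 called 1 receptor, Fzd4, higher (adjusted p = 0.0221). Of the 16 Frizzled receptors and co-receptors 14 were tested, 12 with estimates below 0, and at an unadjusted p under 0.05 there were 2 higher and 6 lower, with a median of -0.13. Fzd6 had the lowest estimate at -0.28 (adjusted p = 0.134, edgeR). Fzd4, the receptor for Wnt and Norrin in vessels, had the highest at 0.26 (adjusted p = 0.0892, edgeR), with 263, 286 and 244 CPM in R/R lungs and 225, 227 and 210 CPM in WT lungs. Of the 9 genes of the R-spondin module, 3 were higher and 1 was lower at an unadjusted p under 0.05. Rspo2, an R-spondin ligand that amplifies Wnt signals, was counted 6, 5 and 11 times in R/R lungs and 13, 15 and 23 times in WT lungs (log2 fold change -1.20, standard error 0.43, adjusted p = 0.220, edgeR). Of the 19 genes of the destruction complex and Dishevelled, all tested, 15 had estimates below 0 with a median of -0.02, and at an unadjusted p under 0.05 there were 0 higher and 1 lower. Their extremes were Apc2 at -0.23 (adjusted p = 0.401, edgeR) and Dact2 at 0.06 (adjusted p = 0.952, edgeR). With no filter on low counts, 14 genes of the pathway lists were called, 6 higher and 8 lower. Beside the 5 above these were Fzd4, Wnt7a, Rspo1 and Tle1, which were higher, and Fzd6, Wnt4, Sost, Prickle1 and Ccnd1, which were lower. Fzd6, Kremen2, Apc2 and Dact2 share between 10 and 200 exonic bases with a gene on the opposite strand, which the counting could not separate. The same holds for Tle1, which shares 247 with Gm11250, and for Ccnd1, which shares 1100 with LTO1.

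The genes whose log2 CPM followed Sfrp1 most closely over the 6 lungs, among the 14378 genes whose mean log2 CPM was 1 or more, were Pparg, Runx1 and Idi1, with Pearson's r of 0.996, 0.994 and 0.994. None of these passed the threshold, with adjusted p of 0.154, 0.221 and 0.0642 (edgeR). Pparg, a nuclear receptor, is 1 of the alveolar macrophage markers above, and was at 12.4, 10.8 and 12.2 CPM in R/R lungs and 7.83, 8.78 and 9.89 CPM in WT lungs. For Tcf7 the closest were Rell1, Gm15411 and St8sia1, with r of 0.993, 0.993 and 0.992. Rell1 was called lower (adjusted p = 0.0486, edgeR), and Gm15411 and St8sia1 were not called (adjusted p = 0.742 and 0.218, edgeR). As a description over 6 lungs that share the genotype difference, r was above 0.9 for 350 genes with Sfrp1 and for 290 genes with Tcf7.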

How the data were processed

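RNA from whole lungs of 3 R/R and 3 WT mice was read as pairs of 150 bp. Per the labels and the file header, the authors used HISAT2 2.1.0 for alignment to GRCm38 (mm10) and featureCounts 2.0.1 with GENCODE M25 for counting, and the deposited values are raw counts of pairs per gene, with neither normalization nor strand, although the supplement describes stranded sequencing. The deposited values hold no estimated count: 1 column was entered as such in the records of this work because a format check misread the comment line, and all 6 columns are whole-number counts, none rounded. The sources differ on RNA extraction (Trizol or RNeasy) and on the version of featureCounts (2.0.1 in the file header, an earlier one in the supplement). They also differ on the authors' tool for differential expression (edgeR in the supplement, DESeq2 in the processing notes).

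Gene symbols came from GENCODE M21 by gene identifier (55141 of 56262 matched), and exons from the deposited count table itself. In R 4.3.3, genes were kept by filterByExpr of edgeR 4.0.16 (minimum count 10, minimum total 15), which left 17120 genes holding 99.8% to 99.9% of the counts. TMM gave the scaling factors, glmQLFit and glmQLFTest the comparison, and a gene was called when its p, adjusted by Benjamini-Hochberg, was under 0.05. The biological coefficient of variation was 8.62%. Standard errors are the fold change over the square root of F. Permutation tests used log2 CPM with a prior count of 0.5. The steps were tested on simulated data. Libraries of the same genotype differed by a chi-square per degree of freedom of 5.64 to 9.02, above counting noise, and were counted separately. Counting limits cover counting error only.

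The 10 genes, the pathway and marker lists and the tests were chosen with earlier results of these data known. Besides these genes, Dkk1 and Rbm47, the text names every called gene of the pathway lists, the highest and the lowest estimate of each list, the 3 genes closest to each called gene, and defining cell markers. Lrrn4, Chil3, Mrc1, Pdgfrb, Rspo1, Wls, Sost, Tle1, Wnt4, Prickle1 and Ccnd1 were named after their values were seen. Alternatives were DESeq2 1.42.0, limma-voom (limma 3.58.1), other scaling factors, other filters, a replicate block, each lung left out, and, added after seeing the data, both lungs with adipose transcripts left out.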

Additional observations from a re-analysis of the deposited data

How the results depend on the processing

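The number of called genes among the 10 was 2 in 7 of the 8 alternatives run on all 6 lungs and 3 with no filter on low counts, where Axin2 was added with a log2 fold change of -0.29 (adjusted p = 0.0121, edgeR). There the prior degrees of freedom were infinite, against 7.66 in the filtered fit, so no gene kept a spread of its own. With 1 lung left out the number was between 1 and 2. Tcf7 was called in all 15 alternatives, at log2 fold changes between -0.57 and -0.44. Sfrp1 was called in 10 of the 15, in 1 of the 6 that leave out a lung, where its log2 fold change was between 0.63 and 0.99. With 1 lung left out, Dkk2 ranged from -0.47 (without R/R replicate 3) to 1.16 and Dact2 from -0.13 (without R/R replicate 1) to 0.30, with Dact2 also below 0 without R/R replicate 3 or WT replicate 2. Without both lungs with adipose transcripts, Dkk2 reversed to -0.51 and Dact2 to -0.031. The cause was not tested. Among the other pathway genes, 14 were called with no filter, 6 with DESeq2, 4 with a filter of 1 CPM in 3 libraries, where Wnt10b was lost, and between 0 (without WT replicate 1) and 6 (without WT replicate 3) with 1 lung left out. Over all genes, 300 were called, 541 with DESeq2, 1109 with no filter, 575 without both lungs with adipose transcripts and between 65 and 621 with 1 lung left out. Relative to T cell markers, the difference of Tcf7 stayed between -0.12 and 0.05 with 1 lung left out. Scaling by other factors moved the median of all genes by at most 0.004 on the log2 scale. Over all tested genes, deviations from the genotype mean had correlations of -0.014, -0.004 and -0.015 between same-numbered lungs. With 3 lungs centered in each genotype, these values cannot show whether the replicate numbers pair the lungs. With the replicate number as a block, 2 of the 10 genes, 5 other pathway genes and 446 of all genes were called. Among the 10 genes, Dkk2 rested on the fewest counts.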
